A study of Homo sapiens with 24 samples.

Results

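The glycolysis and hypoxia genes described here are 34 genes picked by symbol from the 58735 genes of the deposited table, and all 34 were found. They comprise 2 glucose transporters, 16 enzymes of the glycolytic chain, 2 regulators of phosphofructokinase, 5 genes of lactate and pyruvate handling, 4 genes of oxygen sensing and 5 targets of the hypoxia-inducible factors. Glycolysis splits glucose into pyruvate in the cytosol and yields a little ATP without oxygen, and lactate dehydrogenase then regenerates the NAD that the chain needs. The hypoxia-inducible factors (HIF) are transcription factors whose alpha subunits are destroyed when oxygen is plentiful, because prolyl hydroxylases mark them for degradation. When stable, they raise many glycolytic genes together with genes for vessel growth, mitophagy and matrix assembly. Macrophages are known to turn towards glycolysis when they meet lipopolysaccharide, in part through HIF1A, and IL-4 stimulated macrophages are known more for oxidative metabolism.

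RNA was sequenced from THP-1 cells, an established human monocytic leukaemia line that phorbol ester turns into macrophage-like cells. All groups had 72 hours of the phorbol ester PMA at 20 nM in medium with 2-mercaptoethanol. In M1 the cells then received LPS at 1 ug/ml with interferon gamma at 100 ng/ml, in M2 they received IL-4 at 100 ng/ml, and in M0 they stayed resting. The CES1KD cells carried a lentiviral short-hairpin RNA, stably expressed, against CES1, a carboxylesterase that hydrolyses esters and lipids. They are 1 stable line. The comparison cells are labelled WT. Whether they carried a control vector, and how long M1 and M2 treatments lasted, the sources used here do not say, and effects of the vector and of CES1 loss cannot be told apart. Each of the 6 groups had 4 libraries, 24 in all. Nothing in the labels shows replicates to be separate cultures, so the p-values rest on the spread between libraries, which may be technical. Because RNA was pooled over cells, fewer cells expressing a gene and less RNA per cell cannot be told apart.

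The HIF complex binds a short DNA core, ACGTG or GCGTG, and the 250 bases upstream of the RefSeq start of each gene were searched for both words on both strands. Upstream windows were found for 31 of the 34 genes (GRCh38.p14), and not for SLC2A3, SLC16A1 and NDRG1. At least 1 match was present in 19 of these 31 windows (61.3%), in 9 of the 16 enzyme windows (56.2%), in all 4 windows of hypoxia targets, and in 43.1% of the 27305 windows of all genes. The word ACGTG alone was in 38.7% of the members' windows and in 18.7% of all windows, and GCGTG alone was in 35.5% and 31.9%. Because CACGTG reads ACGTG on either strand, 1 place can give 2 matches. The word bound by STAT factors, TTC and GAA with 4 bases between them, was in 0 of the 31 windows and in 5.35% of all windows. The 6 windows below are examples, which set windows with several matches beside one with none. HK2, ADM and PFKP are among the genes with the largest called differences, and PGK1, LDHA and P4HA1 are not. The choice is thus no measure of how often such genes hold a match. Capitals mark ACGTG or GCGTG on either strand, so a match on the other strand reads CACGT or CACGC. A match of letters is a description and no measure of binding. A RefSeq start can differ from the gene bounds of the deposited table, which are the coordinates given with each gene later (GRCh38).
Upstream windows: HK2 at chr2:74833877-74834126 on the plus strand, PGK1 at chrX:78103998-78104247 on the plus strand, LDHA at chr11:18394313-18394562 on the plus strand, ADM at chr11:10304823-10305072 on the plus strand, P4HA1 at chr10:73096867-73097116 on the minus strand, PFKP at chr10:3067720-3067969 on the plus strand, all 5′ to 3′ on the strand of the gene.
HK2: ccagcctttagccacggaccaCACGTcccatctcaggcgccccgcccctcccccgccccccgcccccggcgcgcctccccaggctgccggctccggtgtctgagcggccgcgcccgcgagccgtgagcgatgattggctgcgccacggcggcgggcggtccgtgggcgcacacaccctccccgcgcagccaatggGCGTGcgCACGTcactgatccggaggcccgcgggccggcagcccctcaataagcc
PGK1: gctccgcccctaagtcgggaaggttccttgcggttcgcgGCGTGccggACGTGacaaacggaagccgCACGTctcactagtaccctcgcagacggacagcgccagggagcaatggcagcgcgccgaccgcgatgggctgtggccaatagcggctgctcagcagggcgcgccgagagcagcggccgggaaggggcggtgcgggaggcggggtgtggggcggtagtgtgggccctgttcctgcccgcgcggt
LDHA: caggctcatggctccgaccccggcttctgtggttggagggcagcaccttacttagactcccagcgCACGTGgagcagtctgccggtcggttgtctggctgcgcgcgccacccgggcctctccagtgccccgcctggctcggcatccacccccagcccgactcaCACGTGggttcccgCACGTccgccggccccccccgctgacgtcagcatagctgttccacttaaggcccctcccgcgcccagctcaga
ADM: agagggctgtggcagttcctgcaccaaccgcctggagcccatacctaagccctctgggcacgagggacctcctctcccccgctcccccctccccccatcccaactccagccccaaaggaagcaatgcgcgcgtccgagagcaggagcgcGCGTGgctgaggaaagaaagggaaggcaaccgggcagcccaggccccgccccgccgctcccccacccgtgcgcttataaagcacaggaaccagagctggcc
P4HA1: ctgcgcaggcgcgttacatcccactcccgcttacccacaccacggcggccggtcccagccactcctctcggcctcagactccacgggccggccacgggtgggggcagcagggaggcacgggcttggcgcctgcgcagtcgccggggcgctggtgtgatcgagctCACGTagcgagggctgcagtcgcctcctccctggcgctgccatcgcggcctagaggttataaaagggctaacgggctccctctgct
PFKP: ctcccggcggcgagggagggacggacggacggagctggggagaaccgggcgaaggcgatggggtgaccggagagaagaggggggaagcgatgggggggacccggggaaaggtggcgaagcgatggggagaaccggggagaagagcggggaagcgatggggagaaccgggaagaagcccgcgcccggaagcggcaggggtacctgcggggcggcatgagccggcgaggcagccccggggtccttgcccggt
The windows of HK2, PGK1 and LDHA held 3 separate matched places each, those of ADM and P4HA1 held 1 each, and that of PFKP held none. Outside this set the window of BNIP3 held 5 matched places and that of ALDOC held 4. Among other genes with the largest called differences, ENO1 held 2 and HIF1A, EPAS1, PFKFB3 and PFKFB4 held 1 each. The windows of SLC2A1, HK3, LDHB and PKM held none.

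The libraries held 14881563 to 26671681 fragments on genes, recovered from the FPKM values, and 20275 to 25065 genes were above 0. CES1 itself averaged 0.0286 ± 0.0379 FPKM in CES1KD M1 and 4.63 ± 0.759 FPKM in WT M1. It averaged 0.0505 ± 0.0525 FPKM in CES1KD M2 and 6.32 ± 0.61 FPKM in WT M2, and 0.0809 ± 0.0542 FPKM in CES1KD M0 and 7.13 ± 0.678 FPKM in WT M0 (SD, n = 4 each). The reduction was 99.4%, 99.2% and 98.9%, and each exact two-sided permutation test gave p = 0.0286, the smallest p that 4 against 4 libraries allow. CXCL9, an interferon-induced chemokine, averaged 33.0 FPKM in CES1KD M1 and 0.0414 FPKM in CES1KD M0. CISH, a target of IL-4 signalling, averaged 15.5 FPKM in CES1KD M2 and 0.435 FPKM in CES1KD M0. The fit described below, where shares over all genes are given, also compared the lines on the lists of both genes. Of 6 LPS and interferon gamma genes, 3 were higher and 1 lower in CES1KD than in WT in M0 (log2 differences -0.69 to 4.49). In M1 0 were higher and 3 lower (-2.88 to 0.28), and in M2 3 were higher and 1 lower (-0.77 to 4.04). Of 5 IL-4 genes tested, 1 was higher and 2 lower in M2 (-3.93 to 0.24). The part of these differences in the results was not tested. Of the macrophage markers 10 of 11 passed the filter on low values, against 1 of 8 fibroblast, 0 of 8 epithelial and 0 of 8 erythroid markers. Of the lymphocyte markers 4 of 11 passed, with a summed level of 116 to 133 FPKM in CES1KD M0 and 56.7 to 70.9 FPKM in WT M0, while CD3E was at 0 in every group. The part of these markers in the results was not tested. CES1KD M2 replicate 2 stood apart, with correlations of 0.951 to 0.957 to the other libraries of its group, against 0.977 to 0.991 for all other pairs within groups. Calls in CES1KD M2 that change without it are given beside the results. The labels give 4 as the minimum RNA integrity number, a score of RNA quality. The share of fragments on mitochondrial genes, which can follow RNA quality, also differed between the lines without overlap. It was 1.01% to 1.16% in CES1KD M1 and 1.36% to 1.77% in WT M1, 1.21% to 1.55% in CES1KD M2 and 1.91% to 2.8% in WT M2, and 1.29% to 1.48% in CES1KD M0 and 1.81% to 2.39% in WT M0. The part of this share in the results was not tested.

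Of the 34 genes, 32 passed the filter of at least 1 FPKM in 4 or more libraries. PFKM, the muscle phosphofructokinase, lay between 0.136 and 0.576 FPKM over the 24 libraries, and EGLN3, a prolyl hydroxylase induced by HIF, lay between 0 and 1.09 FPKM. Differences below are of log2(FPKM + 1), a scale that understates the change of low genes, with the standard error (SE) of a limma fit over all 13242 genes that passed. A gene is called when its Benjamini-Hochberg adjusted p over those genes is under 0.05.

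In M1, CES1KD cells had 8 of the 32 genes higher and 11 lower than WT cells, where 57.2% of all genes tested were called, 28.5% higher and 28.7% lower. In M2 they had 11 higher and 13 lower, where 52.3% of all genes were called, 25.6% higher and 26.7% lower. In resting M0 cells they had 15 higher and 6 lower, where 54.3% of all genes were called, 28.1% higher and 26.3% lower. The members called came to 19, 24 and 21 of 32, which in M1 is near the background. In M0 the 21 fell to 17 to 20 when 1 library was left out, with 6688 to 6788 of all 13242 genes called. No test of these counts was made. The median difference over the members was -0.03 in M1, -0.06 in M2 and 0.16 in M0, and over all genes tested 0.00, -0.01 and 0.00. In M0 the split of 15 higher and 6 lower became 11 higher and 10 lower when libraries were scaled to their total or to the upper quartile, and in M1 the split of 8 and 11 became 6 and 13 when scaled to the total. Over all genes the M0 split was 3718 higher and 3478 lower, and it became 3177 and 4239 by the total and 3084 and 4283 by the upper quartile. In M1 it was 3776 and 3802 and became 3139 and 4309 by the total. HK1, HK2, ENO2, PFKFB4, HIF1A and ADM were higher in all 3 states, and SLC2A3, HK3, ENO1 and LDHB were lower in all 3. NDRG1 was lower in M1 and M0 and higher in M2, and PFKL, ALDOA and SLC16A3 were called in no state.

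**Figure D1:**
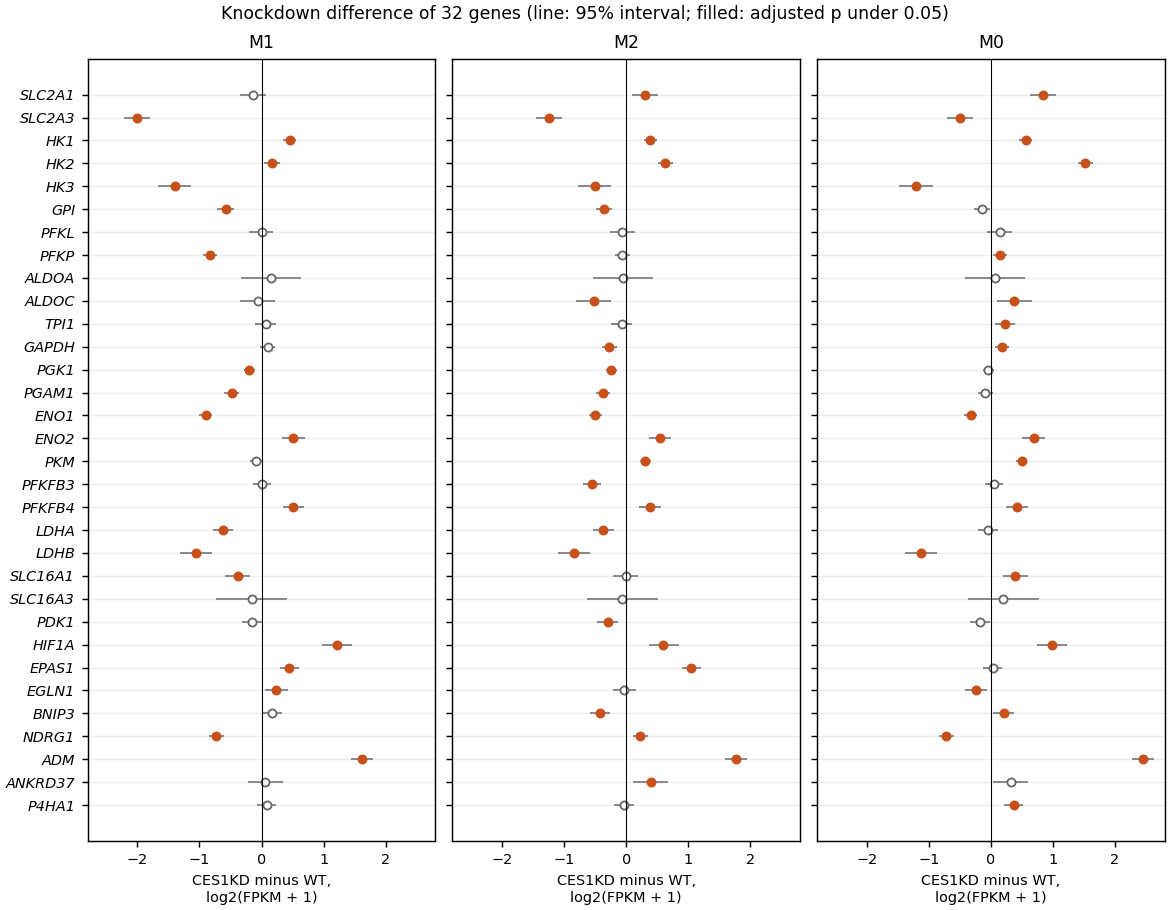
Difference between CES1KD and WT libraries in log2(FPKM + 1) for 32 genes in M1, M2 and M0, with 95% intervals of the limma fit (n = 4 libraries a group) and filled symbols where adjusted p is under 0.05. ADM lies at 1.62, 1.77 and 2.45 to the right of 0 and SLC2A3 at -2.01, -1.25 and -0.50 to its left.

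The difference between the lines itself changed with stimulation. The knockdown effect in M1 differed from that in M0 for 13 of the 32 genes, 2 upwards and 11 downwards, where 23.6% of all genes were called, 10.4% upwards and 13.2% downwards. In M2 it differed from that in M0 for 14 of the 32, 3 upwards and 11 downwards, where 6.65% of all genes were called, 2.41% upwards and 4.24% downwards. The median of this change was -0.18 in M1 and -0.21 in M2 over the members, against 0.00 and -0.02 over all genes tested. Both comparisons use the same M0 libraries, so their values stand side by side and their overlap is not read as a result. The same fit seen from within each line showed it: M1 against M0 gave 12 higher and 7 lower in CES1KD cells, where 44.7% of all genes were called (24.9% higher, 19.8% lower). In WT cells it gave 21 higher and 3 lower, where 48.1% of all genes were called (26.4% higher, 21.8% lower). M2 against M0 gave 6 higher and 5 lower in CES1KD cells, where 22.8% of all genes were called (11.3% higher, 11.5% lower). Without CES1KD M2 replicate 2 it gave 8 higher and 4 lower in CES1KD cells, with SLC2A1 (0.21) and TPI1 (0.21) called and PFKL (-0.15 in place of -0.30) not called. In WT cells, M2 against M0 gave 21 higher and 2 lower, where 27.1% were called (14.6% higher, 12.5% lower). These splits lean on the scaling of M1 libraries. Scaling to the total moved the median of all genes in M1 against M0 by -0.18 in CES1KD and -0.20 in WT, and gave 5 members higher and 13 lower in CES1KD and 15 higher and 6 lower in WT. Over all 13242 genes that scaling gave 1838 higher and 5335 lower in CES1KD and 2005 higher and 5639 lower in WT. Scaling to the upper quartile gave 15 members higher and 5 lower in WT M1 (2297 and 4721 of all genes), and scaling to the total gave 17 higher and 4 lower in WT M2 (1349 and 2616 of all genes).

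Of the genes higher in WT M1 than in WT M0, 10 had a lower signed response in CES1KD cells by the test of the difference, namely SLC2A1, SLC2A3, HK2, GPI, PFKP, PGAM1, ENO1, PKM, LDHA and ADM. Of the genes higher in WT M2 than in WT M0, 10 had a lower signed response in CES1KD cells, namely SLC2A1, SLC2A3, HK2, ALDOC, GAPDH, PGK1, PGAM1, PFKFB3, BNIP3 and P4HA1. The WT response that picks these genes also enters the difference with a minus sign. Both lists thus lean towards a lower CES1KD response in advance, and their counts are not read as a result. The share among all genes picked in the same way was not counted. The lower response is not always a smaller one: in CES1KD cells SLC2A3, GPI and ENO1 were called lower in M1 than in M0, and ALDOC, GAPDH and PFKFB3 were called lower in M2 than in M0. Scaled to the total or the upper quartile, GPI and ENO1 were no longer called higher in WT M1. GAPDH and PFKFB3 were no longer called higher in WT M2 when scaled to the total, nor was ALDOC without the filter. Between them the lists hold both transporters, enzymes from the head and the tail of the chain, LDHA and 3 hypoxia targets. In M2 the call on the difference was lost without 1 library for P4HA1 (without WT M0 replicate 3, at -0.37), for PGAM1 (without CES1KD M0 replicate 2 or 4, WT M0 replicate 2 or 3 or WT M2 replicate 4, at -0.28 to -0.27) and for PGK1 (without CES1KD M0 replicate 2, 3 or 4, CES1KD M2 replicate 1, 3 or 4, WT M0 replicate 1, 2 or 3 or WT M2 replicate 2, 3 or 4, at -0.22 to -0.18). Leaving out CES1KD M2 replicate 2 instead added calls on the difference in M2 for PKM (-0.20), LDHA (-0.41), SLC16A1 (-0.51) and HIF1A (-0.51). Other settings also cost calls on the difference in M2. The call on PGK1 was lost without the filter, under each of the 3 other scalings, without the intensity trend and with only the groups compared. That on PGAM1 was lost without the filter, scaled to the total and with only the groups compared. That on SLC2A1 was lost without the filter and with only the groups compared.

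**Figure D2:**
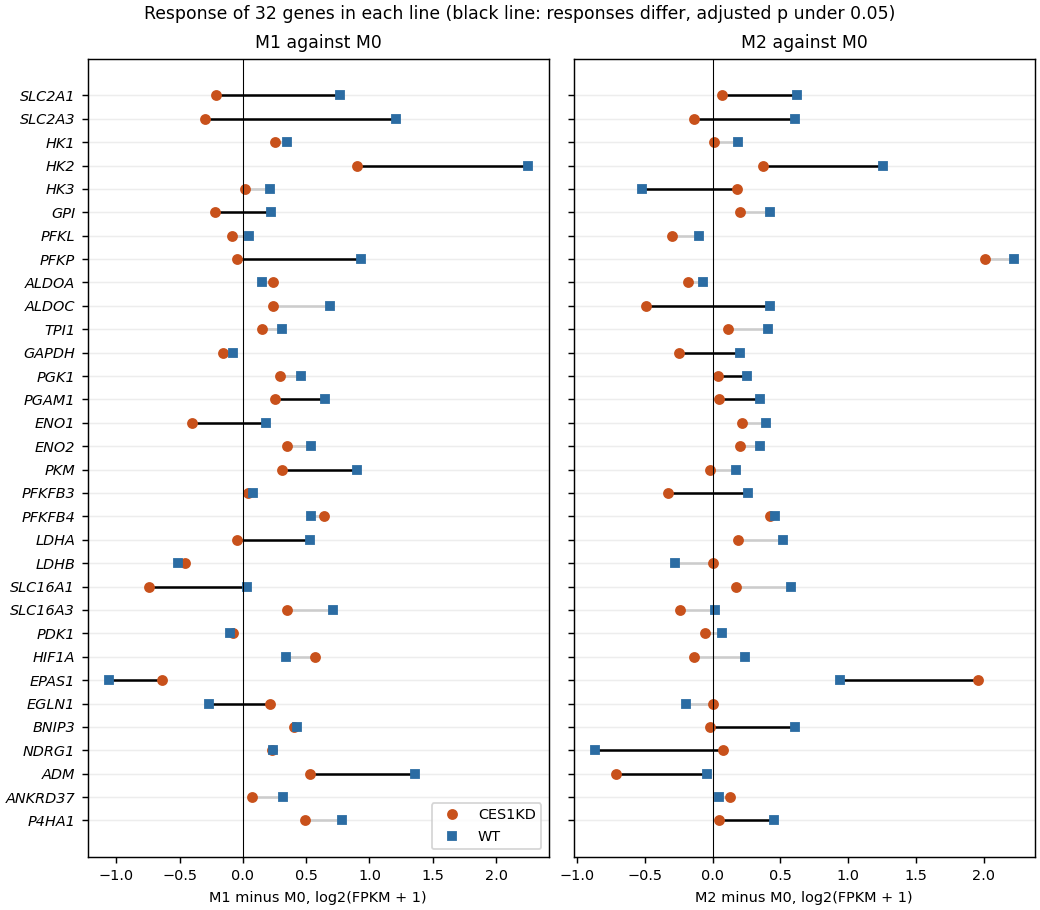
Stimulated minus resting difference in log2(FPKM + 1), M1 against M0 and M2 against M0, in CES1KD cells (circles) and WT cells (squares), with a black line where the responses of the lines differed at adjusted p under 0.05. HK2 lies at 0.90 in CES1KD and 2.25 in WT for M1, and at 0.37 in CES1KD and 1.26 in WT for M2.

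The glucose transporters came apart. SLC2A1 (ENSG00000117394, chr1:42925375-42959176), the basal glucose transporter GLUT1, was at 38.8, 37.5, 39.0 and 38.4 FPKM in the CES1KD libraries, against 49.8, 40.3, 37.3 and 43.4 FPKM in the WT libraries, in M1. In M2, SLC2A1 was at 50.7, 34.7, 52.3 and 52.4 FPKM in the CES1KD libraries, against 37.8, 34.7, 40.4 and 39.2 FPKM in the WT libraries. In M0, SLC2A1 was at 42.8, 43.4, 45.3 and 46.8 FPKM in the CES1KD libraries, against 23.6, 23.9, 23.1 and 27.5 FPKM in the WT libraries. The M0 libraries of the lines did not overlap, while those of M1 did. In M2 only CES1KD replicate 2 fell among the WT libraries, and the other 3 lay above them. The CES1KD minus WT difference was -0.14 ± 0.10 (adjusted p = 0.248) in M1, which did not pass, 0.30 ± 0.10 (adjusted p = 0.0183) in M2 and 0.84 ± 0.10 (adjusted p = 3.56e-07) in M0. For SLC2A1, M1 against M0 was -0.21 ± 0.10 in CES1KD cells, not called, and 0.77 ± 0.10 in WT cells. The lines differed in this by -0.98 ± 0.14 (adjusted p = 2.29e-05), and in M2 against M0 by -0.54 ± 0.14 (adjusted p = 0.0229). The M2 difference was not called when the fit held only the groups compared (adjusted p = 0.11), nor without CES1KD M2 replicate 1, 3 or 4 or WT M2 replicate 2, at 0.24 to 0.26. The difference between the lines in M2 against M0 was not called without CES1KD M0 replicate 4, WT M0 replicate 3 or WT M2 replicate 3, at -0.52 to -0.51. Nor was it called without the filter (adjusted p = 0.052) or when the fit held only the groups compared (adjusted p = 0.0507). Replicate 2 of CES1KD M2 was the low one at 34.7 FPKM, and without it the M2 difference between the lines was 0.44 and M2 against M0 in CES1KD cells was 0.21 and called.

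SLC2A3 (ENSG00000059804, chr12:7919230-7936275), the high-affinity transporter GLUT3, had the lowest difference of the 32 genes in M1 and in M2. In M1, SLC2A3 was at 1.26, 1.31, 1.63 and 1.1 FPKM in the CES1KD libraries, against 8.08, 7.97, 9.21 and 8.08 FPKM in the WT libraries. In M2, SLC2A3 was at 1.58, 2.2, 1.13 and 1.57 FPKM in the CES1KD libraries, against 4.4, 5.54, 5.41 and 5.38 FPKM in the WT libraries. In M0, SLC2A3 was at 1.63, 2.06, 1.95 and 1.79 FPKM in the CES1KD libraries, against 2.84, 2.73, 3.14 and 3.44 FPKM in the WT libraries. No library of CES1KD overlapped one of WT in any state, and WT cells climbed with stimulation while CES1KD cells did not. The difference was -2.01 ± 0.10 (adjusted p = 1.33e-13) in M1, -1.25 ± 0.10 (adjusted p = 5.35e-10) in M2 and -0.50 ± 0.10 (adjusted p = 0.000207) in M0. For SLC2A3, M1 against M0 was -0.30 ± 0.10 in CES1KD cells and 1.21 ± 0.10 in WT cells, opposite in sign and both called, and the lines differed by -1.51 ± 0.14 (adjusted p = 3.96e-08). The CES1KD call was lost without CES1KD M0 replicate 2 or CES1KD M1 replicate 4, at -0.27 to -0.25. For SLC2A3, M2 against M0 was -0.14 ± 0.10 in CES1KD cells, not called, and 0.61 ± 0.10 in WT cells. Of the FPKM of both transporters SLC2A3 took 3.33% in CES1KD M1 and 16.5% in WT M1, 3.5% in CES1KD M2 and 12.0% in WT M2, and 4.0% in CES1KD M0 and 11% in WT M0. SLC2A3 has a near-identical neighbour, SLC2A14, and reads shared by the pair could be split by the counting.

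**Figure D3:**
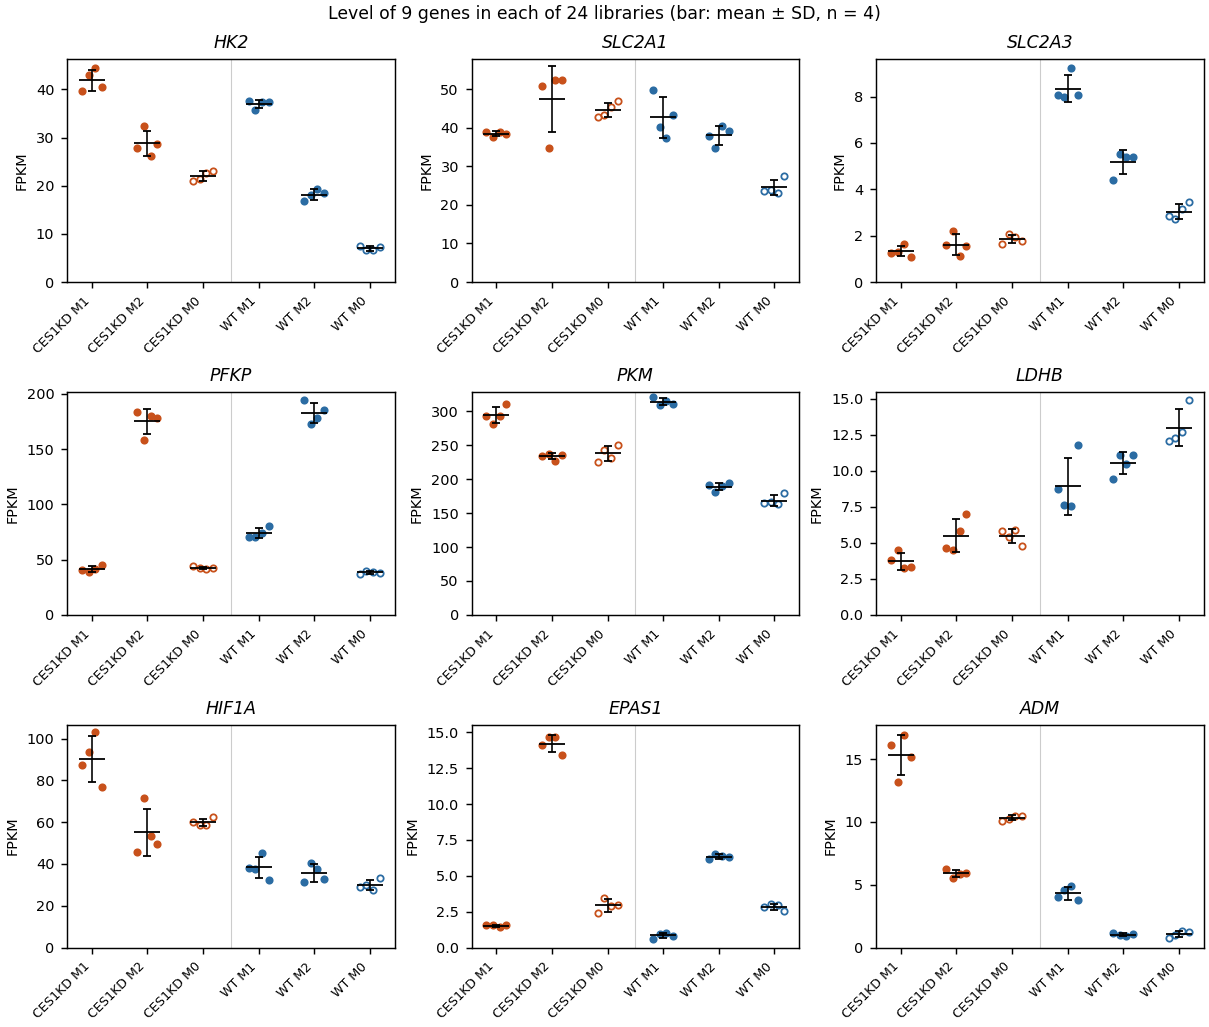
FPKM in each library (points) with mean and SD (bars, n = 4) for HK2, SLC2A1, SLC2A3, PFKP, PKM, LDHB, HIF1A, EPAS1 and ADM in the 6 groups, CES1KD in orange and WT in blue. The 4 CES1KD M0 libraries of HK2 sit between 20.9 and 23.1 FPKM, above the WT M0 libraries at 6.56 to 7.52 FPKM.

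Hexokinases trap glucose in the cell as its phosphate, and their mix differed between the lines. HK2 (ENSG00000159399, chr2:74833981-74893359), the inducible hexokinase, was at 39.6, 42.9, 44.4 and 40.5 FPKM in the CES1KD libraries, against 37.5, 35.8, 37.4 and 37.4 FPKM in the WT libraries in M1. In M2, HK2 was at 27.9, 32.4, 26.1 and 28.7 FPKM in the CES1KD libraries, against 16.8, 18.1, 19.4 and 18.4 FPKM in the WT libraries. In M0, HK2 was at 20.9, 21.4, 22.6 and 23.1 FPKM in the CES1KD libraries, against 7.52, 6.56, 6.66 and 7.26 FPKM in the WT libraries. Resting CES1KD libraries lay above even the IL-4 stimulated WT libraries, and the WT M1 level nearly reached that of CES1KD M1. The lines stood apart in M2 and M0, and in M1 the lowest CES1KD library at 39.6 FPKM lay just above the highest WT library at 37.5 FPKM. The difference was 0.17 ± 0.06 (adjusted p = 0.0201) in M1, 0.63 ± 0.06 (adjusted p = 1.03e-08) in M2 and 1.52 ± 0.06 (adjusted p = 2.87e-15) in M0. The small M1 difference was 0.09 with adjusted p = 0.165 when scaled to the total and 0.14 with adjusted p = 0.0618 when scaled to the upper quartile, and it was not called without CES1KD M1 replicate 2 or 3 or WT M1 replicate 2, at 0.14 to 0.16. For HK2, M1 against M0 was 0.90 ± 0.06 in CES1KD cells and 2.25 ± 0.06 in WT cells, both called, and the lines differed by -1.35 ± 0.09 (adjusted p = 7.74e-11). For HK2, M2 against M0 was 0.37 ± 0.06 in CES1KD cells and 1.26 ± 0.06 in WT cells, and the lines differed by -0.89 ± 0.09 (adjusted p = 2.89e-07).

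HK1, the constitutive hexokinase, averaged 27.8 ± 1.24 FPKM in CES1KD and 20.0 ± 1.08 FPKM in WT, in M1, 23.5 ± 1.38 FPKM in CES1KD and 17.8 ± 0.741 FPKM in WT, in M2 and 23.3 ± 1.05 FPKM in CES1KD and 15.5 ± 0.643 FPKM in WT, in M0. Its libraries were higher in CES1KD without overlap in each state, by 0.46 ± 0.05, 0.38 ± 0.05 and 0.56 ± 0.05. HK3 (ENSG00000160883, chr5:176880869-176899332), a hexokinase of myeloid cells, was at 1.8, 1.45, 1.68 and 2.41 FPKM in the CES1KD libraries, against 5.57, 7.86, 5.24 and 7.32 FPKM in the WT libraries in M1. In M2, HK3 was at 2.88, 1.63, 2.13 and 2.03 FPKM in the CES1KD libraries, against 4.07, 3.49, 2.66 and 3.77 FPKM in the WT libraries, and in M0 at 1.71, 2.02, 1.41 and 1.98 FPKM in the CES1KD libraries, against 5.46, 5.22, 5.54 and 5.46 FPKM in the WT libraries. It was lower in CES1KD, at -1.40 ± 0.13 (adjusted p = 6.04e-09) in M1, -0.51 ± 0.13 (adjusted p = 0.00225) in M2 and -1.21 ± 0.13 (adjusted p = 5.64e-08) in M0, with overlap of libraries in M2 only. For HK3, M2 against M0 was 0.18 ± 0.13 in CES1KD cells, not called, and -0.52 ± 0.13 in WT cells, and the lines differed by 0.70 ± 0.18 (adjusted p = 0.021), a call lost without CES1KD M0 replicate 3 or WT M2 replicate 3, at 0.61 to 0.64. This call on HK3 was also lost without the filter (adjusted p = 0.0508). The 95 other genes tested within 10 Mb of HK3 on chromosome 5 had a median difference of -0.42 in M1, -0.48 in M2 and -0.45 in M0, so its neighbourhood as a whole was lower in CES1KD; whether this holds for HK3 apart from its neighbours was not tested. HK2 made up 58.5% ± 1.86 of the hexokinase FPKM in CES1KD M1 and 58.3% ± 0.828 in WT M1, 52.8% ± 1.39 in CES1KD M2 and 46.1% ± 1.69 in WT M2, and 46.7% ± 0.695 in CES1KD M0 and 25.1% ± 1.24 in WT M0 (SD, n = 4 each). The shares overlapped between the lines in M1 and not in M2 or M0. Taken from fragments in place of FPKM, the M1 share was 56.0% to 59.7% in CES1KD and 59.9% to 60.9% in WT, without overlap, and the difference was -2.06 points in place of 0.224. HK3 held 3.79% in CES1KD M0 and 19.4% in WT M0.

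**Figure D4:**
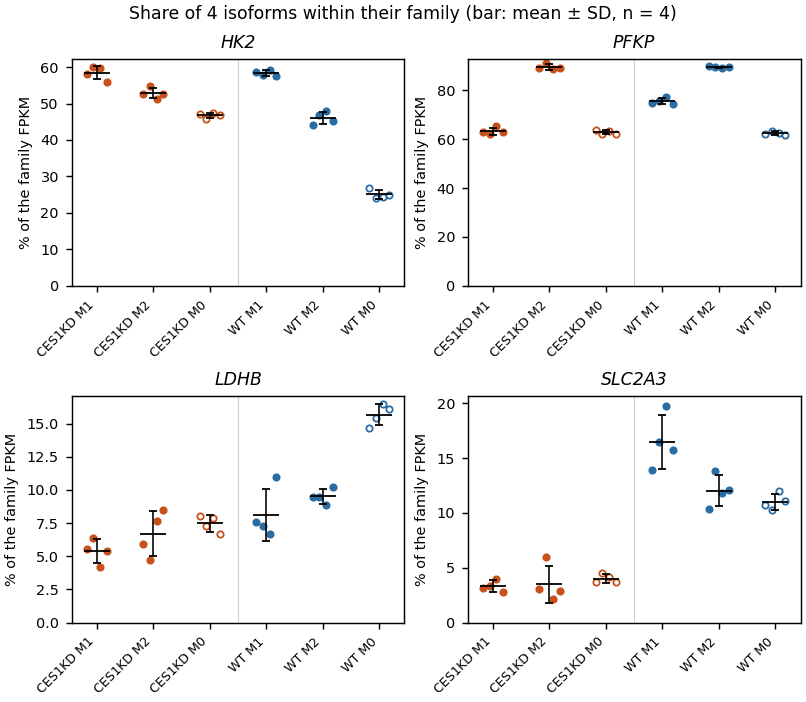
Share of each isoform in the summed FPKM of its family, in percent per library (points) with mean and SD (n = 4), for HK2 among hexokinases, PFKP among phosphofructokinases, LDHB among lactate dehydrogenases and SLC2A3 among the transporters SLC2A1 and SLC2A3. For HK2 the CES1KD M0 mean is 46.7% and the WT M0 mean 25.1%, and for PFKP the CES1KD M1 mean is 63.2% and the WT M1 mean 75.5%.

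The steps from glucose phosphate to the split of the sugar centred on PFKP (ENSG00000067057, chr10:3066333-3137712), the platelet form of phosphofructokinase, the enzyme of the committing step. It was at 40.1, 38.4, 41.2 and 44.8 FPKM in the CES1KD libraries, against 70.8, 70.7, 73.8 and 80.1 FPKM in the WT libraries in M1. In M2, PFKP was at 184, 158, 180 and 178 FPKM in the CES1KD libraries, against 194, 173, 178 and 185 FPKM in the WT libraries. In M0, PFKP was at 44.0, 42.1, 41.9 and 42.4 FPKM in the CES1KD libraries, against 36.6, 40.0, 38.8 and 38.0 FPKM in the WT libraries. Interleukin 4 brought both lines to a like, high level with overlapping libraries, whereas in M1 the WT libraries all lay above those of CES1KD. The difference was -0.83 ± 0.06 (adjusted p = 3.06e-11) in M1, -0.06 ± 0.06 (adjusted p = 0.394) in M2, not called, and 0.15 ± 0.06 (adjusted p = 0.0324) in M0. The small M0 difference was not called under 3 other scalings, without the filter, or without CES1KD M0 replicate 1 or 4 or WT M0 replicate 1 or 4, at 0.12 to 0.15. For PFKP, M1 against M0 was -0.05 ± 0.06 in CES1KD cells, not called, and 0.93 ± 0.06 in WT cells, and the lines differed by -0.98 ± 0.08 (adjusted p = 4.56e-09). For PFKP, M2 against M0 was 2.01 ± 0.06 in CES1KD cells and 2.22 ± 0.06 in WT cells, both called, with a difference of -0.21 ± 0.08 (adjusted p = 0.145) between the lines that did not pass. PFKP made up 63.2% ± 1.48 of the phosphofructokinase FPKM in CES1KD M1 and 75.5% ± 1.22 in WT M1, and 89.5% ± 1.15 in CES1KD M2 and 89.4% ± 0.246 in WT M2. PFKL, the liver form, averaged 23.5 ± 1.89 FPKM in CES1KD and 23.6 ± 2.44 FPKM in WT, in M1, 20.5 ± 3.79 FPKM in CES1KD and 21.1 ± 0.827 FPKM in WT, in M2 and 25.0 ± 0.644 FPKM in CES1KD and 22.7 ± 0.386 FPKM in WT, in M0, and was called between the lines in no state.

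GPI, the isomerase that feeds phosphofructokinase, averaged 18.2 ± 0.738 FPKM in CES1KD and 27.7 ± 1.78 FPKM in WT, in M1, 24.8 ± 1.64 FPKM in CES1KD and 32.1 ± 1.72 FPKM in WT, in M2 and 21.4 ± 0.862 FPKM in CES1KD and 23.7 ± 2.05 FPKM in WT, in M0. It was lower in CES1KD, at -0.58 ± 0.06 in M1 and -0.36 ± 0.06 in M2, with -0.14 ± 0.06 in M0 called only without WT M0 replicate 1 or 3, at -0.17. The aldolases and TPI1 yield the triose phosphates. TPI1 averaged 81.3 ± 4.59 FPKM in CES1KD and 77.6 ± 6.05 FPKM in WT, in M1, 79.4 ± 10.9 FPKM in CES1KD and 82.9 ± 4.64 FPKM in WT, in M2 and 72.9 ± 2.62 FPKM in CES1KD and 62.2 ± 3.69 FPKM in WT, in M0, and only its M0 difference of 0.23 ± 0.08 was called, a call lost when scaled to the total or the upper quartile and without CES1KD M0 replicate 4 or WT M0 replicate 3, at 0.20 to 0.21. ALDOC averaged 2.08 ± 0.458 FPKM in CES1KD and 2.22 ± 0.49 FPKM in WT, in M1, 0.849 ± 0.117 FPKM in CES1KD and 1.68 ± 0.478 FPKM in WT, in M2 and 1.62 ± 0.44 FPKM in CES1KD and 0.992 ± 0.215 FPKM in WT, in M0. ALDOC differed between the lines by -0.06 ± 0.14 in M1, not called, -0.52 ± 0.14 (adjusted p = 0.00293) in M2 and 0.38 ± 0.14 (adjusted p = 0.0223) in M0. The M0 call was lost without the filter and without CES1KD M0 replicate 1 or 2 or WT M0 replicate 2, at 0.29 to 0.36. The M2 response of ALDOC was -0.49 ± 0.14 in CES1KD cells and 0.42 ± 0.14 in WT cells, opposite in sign and both called, and the lines differed by -0.91 ± 0.19 (adjusted p = 0.00428). The CES1KD call was lost without CES1KD M0 replicate 1, at -0.39, and the WT call without WT M0 replicate 1, 2 or 3 or WT M2 replicate 3 or 4, at 0.33 to 0.41. The WT call was also lost without the filter (adjusted p = 0.0589). ALDOA averaged 3.76 ± 1.21 FPKM in CES1KD and 3.32 ± 1.27 FPKM in WT, in M1, 2.61 ± 1.08 FPKM in CES1KD and 2.61 ± 0.502 FPKM in WT, in M2 and 2.94 ± 0.436 FPKM in CES1KD and 2.75 ± 0.233 FPKM in WT, in M0. A same-strand gene, AC093512.2, overlaps ALDOA, so counting could split their reads. The same holds for ALDOC, ENO2, PGK1, PFKFB4, LDHA, SLC16A3 and EGLN3, which also overlap a same-strand neighbour. UCN2, the neighbour of PFKFB4, averaged 9.28 FPKM over all libraries (3.58 to 15.3), against 13.9 FPKM for PFKFB4. SPTSSA, the neighbour of EGLN3, averaged 10.8 FPKM against 0.366 FPKM for EGLN3. The sources used here give no strand setting, and for HK2, PFKM, TPI1, SLC16A3 and ANKRD37, which overlap an opposite-strand gene at more than 1 FPKM, reads of both cannot be told apart.

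The later enzymes of the chain run from GAPDH to pyruvate kinase and yield its ATP. ENO1 (ENSG00000074800, chr1:8861000-8879250), the main enolase, was at 130, 128, 130 and 138 FPKM in the CES1KD libraries, against 258, 233, 236 and 259 FPKM in the WT libraries in M1. In M2, ENO1 was at 201, 190, 205 and 209 FPKM in the CES1KD libraries, against 274, 276, 291 and 299 FPKM in the WT libraries. In M0, ENO1 was at 163, 173, 177 and 179 FPKM in the CES1KD libraries, against 216, 217, 203 and 230 FPKM in the WT libraries. Every CES1KD library lay below every WT library of its state. The difference was -0.90 ± 0.05 (adjusted p = 1.18e-12) in M1, -0.50 ± 0.05 (adjusted p = 2.62e-08) in M2 and -0.32 ± 0.05 (adjusted p = 1.2e-05) in M0. For ENO1, M1 against M0 was -0.40 ± 0.05 in CES1KD cells and 0.18 ± 0.05 in WT cells, where the WT value turned to -0.07 and was not called when scaled to the total, and the lines differed by -0.58 ± 0.07 (adjusted p = 2.29e-06). ENO2, the neuronal enolase, went the other way at much lower levels, with 2.61 ± 0.414 FPKM in CES1KD and 1.52 ± 0.0836 FPKM in WT, in M1, 2.23 ± 0.145 FPKM in CES1KD and 1.22 ± 0.0829 FPKM in WT, in M2 and 1.84 ± 0.424 FPKM in CES1KD and 0.737 ± 0.0969 FPKM in WT, in M0, and differences of 0.51 ± 0.09, 0.54 ± 0.09 and 0.70 ± 0.09, all called.

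PKM (ENSG00000067225, chr15:72199029-72231822), the pyruvate kinase of most tissues, was at 293, 281, 294 and 311 FPKM in the CES1KD libraries, against 321, 310, 316 and 311 FPKM in the WT libraries in M1. In M2, PKM was at 235, 237, 227 and 236 FPKM in the CES1KD libraries, against 191, 181, 190 and 194 FPKM in the WT libraries. In M0, PKM was at 226, 243, 232 and 251 FPKM in the CES1KD libraries, against 165, 166, 163 and 180 FPKM in the WT libraries. Its libraries overlapped between the lines in M1 and lay higher in CES1KD without overlap in M2 and M0. The difference was -0.09 ± 0.04 in M1, called only without CES1KD M1 replicate 4, at -0.12, 0.31 ± 0.04 in M2 and 0.50 ± 0.04 (adjusted p = 1.91e-09) in M0. For PKM, M1 against M0 was 0.31 ± 0.04 in CES1KD cells and 0.90 ± 0.04 in WT cells, both called, and the lines differed by -0.59 ± 0.06 (adjusted p = 1.84e-07). Scaled to the total, the CES1KD value was 0.05 and not called (adjusted p = 0.274). GAPDH, which oxidises the triose phosphate, averaged 243 ± 2.97 FPKM in CES1KD and 227 ± 8.91 FPKM in WT, in M1, 228 ± 15.6 FPKM in CES1KD and 276 ± 14.2 FPKM in WT, in M2 and 271 ± 15.4 FPKM in CES1KD and 240 ± 16.6 FPKM in WT, in M0. Its M2 response was -0.25 ± 0.06 in CES1KD cells and 0.20 ± 0.06 in WT cells, both called, and the lines differed by -0.45 ± 0.08 (adjusted p = 0.000744). Scaled to the total, the WT response of GAPDH was 0.10 and not called (adjusted p = 0.152). The CES1KD response was not called when the fit held only the groups compared (adjusted p = 0.0538). PGK1, which forms the first ATP of the chain, averaged 102 ± 2.92 FPKM in CES1KD and 118 ± 1.33 FPKM in WT, in M1, 85.7 ± 1.38 FPKM in CES1KD and 102 ± 4.86 FPKM in WT, in M2 and 83.3 ± 3.77 FPKM in CES1KD and 85.6 ± 4.08 FPKM in WT, in M0. PGAM1, the phosphoglycerate mutase, averaged 183 ± 3.54 FPKM in CES1KD and 257 ± 14.3 FPKM in WT, in M1, 160 ± 11.7 FPKM in CES1KD and 208 ± 8.62 FPKM in WT, in M2 and 154 ± 7.31 FPKM in CES1KD and 164 ± 8.13 FPKM in WT, in M0. Both were lower in CES1KD in M1 (PGK1 -0.20 ± 0.04, PGAM1 -0.48 ± 0.06) and in M2 (PGK1 -0.24 ± 0.04, PGAM1 -0.38 ± 0.06) and called in neither direction in M0. Reads on pseudogene copies of GAPDH, 62 rows of the table, came to 0.212% to 0.548% of those on GAPDH and its copies.

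The 2 regulators of phosphofructokinase are bifunctional enzymes that make or remove a fructose bisphosphate that activates it. PFKFB3 (ENSG00000170525, chr10:6144934-6254644), the strongly activating form, was at 15.5, 16.2, 14.2 and 16.3 FPKM in the CES1KD libraries, against 15.3, 15.4, 14.9 and 16 FPKM in the WT libraries in M1. In M2, PFKFB3 was at 12.9, 9.93, 13.2 and 11.4 FPKM in the CES1KD libraries, against 19.5, 16.5, 17.3 and 17.5 FPKM in the WT libraries. In M0, PFKFB3 was at 15.0, 14.6, 16.2 and 14.7 FPKM in the CES1KD libraries, against 14.4, 15.1, 13.8 and 15.1 FPKM in the WT libraries. The lines overlapped in M1 and M0 and stood apart in M2, where CES1KD was lower. The difference was 0.01 ± 0.07 in M1 and 0.05 ± 0.07 in M0, neither called, and -0.55 ± 0.07 (adjusted p = 7.03e-07) in M2. For PFKFB3, M2 against M0 was -0.33 ± 0.07 in CES1KD cells and 0.26 ± 0.07 in WT cells, opposite in sign and both called, and the lines differed by -0.60 ± 0.10 (adjusted p = 0.000284). Scaled to the total, the WT value was 0.17 and not called (adjusted p = 0.103). PFKFB4 (ENSG00000114268, chr3:48517684-48562015) was at 20.4, 19.5, 17.6 and 20.8 FPKM in the CES1KD libraries, against 13.3, 13.9, 11.8 and 14.7 FPKM in the WT libraries in M1. In M2, PFKFB4 was at 19.3, 13.5, 17.0 and 17.4 FPKM in the CES1KD libraries, against 14.4, 11.8, 12.1 and 12.2 FPKM in the WT libraries. In M0, PFKFB4 was at 12.0, 13.0, 11.4 and 12.4 FPKM in the CES1KD libraries, against 8.89, 8.78, 8.98 and 8.81 FPKM in the WT libraries. It was higher in CES1KD by 0.51 ± 0.09, 0.38 ± 0.09 and 0.42 ± 0.09 in M1, M2 and M0, with overlapping libraries in M2 only. It was also higher in M1 and in M2 than in M0 in both lines, by 0.64 ± 0.09 in CES1KD M1, 0.54 ± 0.09 in WT M1, 0.42 ± 0.09 in CES1KD M2 and 0.46 ± 0.09 in WT M2.

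Pyruvate leaves the chain as lactate or enters the mitochondrion. LDHA (ENSG00000134333, chr11:18394388-18408425), the lactate dehydrogenase subunit that favours lactate, was at 64.8, 65.7, 73.1 and 58.5 FPKM in the CES1KD libraries, against 107, 97.6, 106 and 95.4 FPKM in the WT libraries in M1. In M2, LDHA was at 73.0, 92.1, 70.2 and 75.3 FPKM in the CES1KD libraries, against 90.2, 106, 108 and 97.9 FPKM in the WT libraries. In M0, LDHA was at 66.0, 68.3, 68.7 and 66.9 FPKM in the CES1KD libraries, against 70.1, 67.6, 64.5 and 77.4 FPKM in the WT libraries. Libraries stood apart in M1 only, with CES1KD lower. The difference was -0.62 ± 0.08 (adjusted p = 7.4e-07) in M1, -0.37 ± 0.08 (adjusted p = 0.000478) in M2 and -0.05 ± 0.08 in M0, the last not called. For LDHA, M1 against M0 was -0.05 ± 0.08 in CES1KD cells, not called, and 0.53 ± 0.08 in WT cells, and the lines differed by -0.58 ± 0.11 (adjusted p = 0.000571). LDHB (ENSG00000111716, chr12:21635342-21757857), the subunit that favours pyruvate, was at 3.81, 4.48, 3.22 and 3.32 FPKM in the CES1KD libraries, against 8.75, 7.63, 7.53 and 11.8 FPKM in the WT libraries in M1. In M2, LDHB was at 4.62, 4.53, 5.85 and 7.01 FPKM in the CES1KD libraries, against 9.44, 11.1, 10.5 and 11.1 FPKM in the WT libraries. In M0, LDHB was at 5.79, 5.37, 5.86 and 4.78 FPKM in the CES1KD libraries, against 12.1, 12.3, 12.7 and 14.9 FPKM in the WT libraries. It was lower in CES1KD without overlap in each state, at -1.06 ± 0.13 (adjusted p = 2.14e-07) in M1, -0.84 ± 0.13 (adjusted p = 6.3e-06) in M2 and -1.12 ± 0.13 (adjusted p = 1.08e-07) in M0. M1 against M0 was also lower, -0.46 ± 0.13 in CES1KD cells and -0.51 ± 0.13 in WT cells. LDHB made up 5.38% of the lactate dehydrogenase FPKM in CES1KD M1 and 8.12% in WT M1, 6.71% in CES1KD M2 and 9.52% in WT M2, and 7.47% in CES1KD M0 and 15.7% in WT M0.

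SLC16A1 (ENSG00000155380, chr1:112911847-112957013), the monocarboxylate transporter MCT1, was at 14.4, 15.8, 16.7 and 13.8 FPKM in the CES1KD libraries, against 20.6, 19.0, 23.3 and 17.5 FPKM in the WT libraries in M1. In M2, SLC16A1 was at 25.8, 37.0, 27.6 and 28.4 FPKM in the CES1KD libraries, against 25.5, 33.4, 30.5 and 29.5 FPKM in the WT libraries. In M0, SLC16A1 was at 24.6, 26.8, 26.1 and 26.3 FPKM in the CES1KD libraries, against 18.4, 20.4, 19.0 and 20.4 FPKM in the WT libraries. The lines crossed, CES1KD lying below WT in M1 and above it in M0 without overlap, and overlapping in M2. The difference was -0.38 ± 0.10 (adjusted p = 0.0021) in M1, -0.01 ± 0.10 in M2, not called, and 0.39 ± 0.10 (adjusted p = 0.00182) in M0. For SLC16A1, M1 against M0 was -0.74 ± 0.10 in CES1KD cells and 0.03 ± 0.10 in WT cells, only the CES1KD value being called (scaled to the total, the WT value was -0.21 and called), and the lines differed by -0.77 ± 0.14 (adjusted p = 0.000229). SLC16A3, the lactate exporter MCT4, averaged 54.8 ± 14 FPKM in CES1KD and 61.9 ± 18.9 FPKM in WT, in M1, 38.8 ± 16 FPKM in CES1KD and 37.4 ± 6.87 FPKM in WT, in M2 and 41.9 ± 2.54 FPKM in CES1KD and 36.3 ± 2.01 FPKM in WT, in M0, and was called between the lines in no state. CES1KD M2 replicate 2 held 15.0 FPKM of it where the other 3 libraries held 43.4 to 48.5 FPKM, and without it the difference between the lines in M2 was 0.33 in place of -0.06, called in neither case. PDK1, the kinase that shuts pyruvate dehydrogenase, averaged 0.926 ± 0.0969 FPKM in CES1KD and 1.15 ± 0.214 FPKM in WT, in M1, 0.963 ± 0.237 FPKM in CES1KD and 1.41 ± 0.0692 FPKM in WT, in M2 and 1.03 ± 0.038 FPKM in CES1KD and 1.3 ± 0.0876 FPKM in WT, in M0, with 1 call between the lines, -0.30 ± 0.08 in M2.

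Of the oxygen-sensing genes the transcripts were measured, and neither the HIF proteins nor their stability. HIF1A (ENSG00000100644, chr14:61695513-61748259), the alpha subunit of HIF-1, was at 87.3, 93.5, 103 and 76.7 FPKM in the CES1KD libraries, against 38.3, 37.4, 45.1 and 32.5 FPKM in the WT libraries in M1. In M2, HIF1A was at 45.9, 71.6, 53.2 and 49.8 FPKM in the CES1KD libraries, against 31.5, 40.6, 37.4 and 33.0 FPKM in the WT libraries. In M0, HIF1A was at 60.3, 58.9, 58.6 and 62.3 FPKM in the CES1KD libraries, against 29.1, 30.1, 27.4 and 33.1 FPKM in the WT libraries. Every CES1KD library exceeded every WT library of its state. The difference was 1.21 ± 0.12 (adjusted p = 1.1e-08) in M1, 0.60 ± 0.12 (adjusted p = 0.000168) in M2 and 0.98 ± 0.12 (adjusted p = 2.77e-07) in M0. For HIF1A, M1 against M0 was 0.57 ± 0.12 in CES1KD cells and 0.34 ± 0.12 in WT cells, both called, with WT libraries overlapping and the WT call lost without WT M0 replicate 3 or WT M1 replicate 3, at 0.26 to 0.30, and M2 against M0 was called in neither line. The WT value in M1 was 0.09 (adjusted p = 0.481) scaled to the total and 0.16 (adjusted p = 0.26) scaled to the upper quartile, called in neither case. CES1KD M2 replicate 2 was high at 71.6 FPKM, and without it the M2 difference was 0.47 and remained called.

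EPAS1 (ENSG00000116016, chr2:46293667-46386703), the alpha subunit of HIF-2, spanned more between states than between lines. In M1, EPAS1 was at 1.54, 1.56, 1.41 and 1.57 FPKM in the CES1KD libraries, against 0.612, 0.918, 1.04 and 0.826 FPKM in the WT libraries. In M2, EPAS1 was at 14.1, 14.7, 14.7 and 13.4 FPKM in the CES1KD libraries, against 6.15, 6.5, 6.4 and 6.33 FPKM in the WT libraries. In M0, EPAS1 was at 2.4, 3.44, 2.92 and 2.98 FPKM in the CES1KD libraries, against 2.83, 3.03, 2.94 and 2.56 FPKM in the WT libraries. Both lines were lowest in M1 and highest in M2, and CES1KD exceeded WT without overlap in M1 and M2 but not in M0. The difference was 0.45 ± 0.07 (adjusted p = 1.51e-05) in M1, 1.05 ± 0.07 (adjusted p = 4.82e-11) in M2 and 0.03 ± 0.07 in M0, the last not called. For EPAS1, M2 against M0 was 1.96 ± 0.07 in CES1KD cells and 0.94 ± 0.07 in WT cells, and the lines differed by 1.02 ± 0.10 (adjusted p = 4.72e-07). For EPAS1, M1 against M0 was -0.64 ± 0.07 in CES1KD cells and -1.06 ± 0.07 in WT cells, and the lines differed by 0.42 ± 0.10 (adjusted p = 0.00401). EGLN1, the main prolyl hydroxylase of HIF, averaged 18.1 ± 1.81 FPKM in CES1KD and 15.1 ± 1.54 FPKM in WT, in M1, 15.5 ± 1.96 FPKM in CES1KD and 15.9 ± 1.51 FPKM in WT, in M2 and 15.5 ± 0.455 FPKM in CES1KD and 18.5 ± 1.6 FPKM in WT, in M0. It was higher in CES1KD by 0.24 ± 0.09 in M1, where libraries overlapped, and lower, at -0.24 ± 0.09, in M0, a call lost without the filter. The M1 call was lost without CES1KD M1 replicate 3 or WT M1 replicate 2 or 4, at 0.18 to 0.22, and the M0 call without CES1KD M0 replicate 1 or 4 or WT M0 replicate 2 or 4, at -0.23 to -0.19. EGLN3 averaged 0.104 ± 0.0204 FPKM in CES1KD and 0.788 ± 0.254 FPKM in WT, in M1, 0.248 ± 0.108 FPKM in CES1KD and 0.939 ± 0.0603 FPKM in WT, in M2 and 0.0235 ± 0.02 FPKM in CES1KD and 0.0948 ± 0.026 FPKM in WT, in M0, and was not tested.

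Among the hypoxia targets the widest gap was that of ADM (ENSG00000148926, chr11:10304680-10307397), which encodes adrenomedullin, a vasodilator peptide. In M1, ADM was at 16.1, 13.2, 16.9 and 15.2 FPKM in the CES1KD libraries, against 4.01, 4.6, 4.93 and 3.79 FPKM in the WT libraries. In M2, ADM was at 6.24, 5.57, 5.83 and 5.97 FPKM in the CES1KD libraries, against 1.13, 0.986, 0.902 and 1.06 FPKM in the WT libraries. In M0, ADM was at 10.1, 10.2, 10.5 and 10.5 FPKM in the CES1KD libraries, against 0.724, 1.03, 1.3 and 1.26 FPKM in the WT libraries. No CES1KD library overlapped a WT library of its state, and in M0 the WT libraries lay near 1 FPKM. The difference was 1.62 ± 0.08 (adjusted p = 3.32e-13) in M1, 1.77 ± 0.08 (adjusted p = 8.37e-14) in M2 and 2.45 ± 0.08 (adjusted p = 2.68e-16) in M0. For ADM, M1 against M0 was 0.53 ± 0.08 in CES1KD cells and 1.36 ± 0.08 in WT cells, both called, and the lines differed by -0.84 ± 0.12 (adjusted p = 1.55e-05). For ADM, M2 against M0 was -0.71 ± 0.08 in CES1KD cells, called, and -0.04 ± 0.08 in WT cells, not called, and the lines differed by -0.68 ± 0.12 (adjusted p = 0.000614).

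NDRG1, a stress-responsive gene, was at 14.9, 15.1, 15.8 and 16.1 FPKM in the CES1KD libraries, against 27.3, 26.7, 25.1 and 26.3 FPKM in the WT libraries in M1. In M2, NDRG1 was at 13.6, 13.1, 14.1 and 14.7 FPKM in the CES1KD libraries, against 11.3, 10.4, 12.7 and 12.4 FPKM in the WT libraries. In M0, NDRG1 was at 12.1, 13.7, 12.9 and 13.7 FPKM in the CES1KD libraries, against 22.5, 21.8, 21.2 and 23.1 FPKM in the WT libraries. CES1KD libraries stayed within a narrow band over the states, while WT libraries were lowest in M2, and the lines did not overlap in any state. The difference was -0.73 ± 0.06 (adjusted p = 3.08e-10) in M1, 0.23 ± 0.06 (adjusted p = 0.00167) in M2 and -0.72 ± 0.06 (adjusted p = 3.99e-10) in M0. For NDRG1, M2 against M0 was 0.08 ± 0.06 in CES1KD cells, not called, and -0.87 ± 0.06 in WT cells, and the lines differed by 0.95 ± 0.08 (adjusted p = 3.82e-08). BNIP3 (ENSG00000176171, chr10:131966455-131982013), a mitophagy receptor, was at 8.18, 8.31, 6.47 and 7.49 FPKM in the CES1KD libraries, against 7.16, 6.1, 6.0 and 7.3 FPKM in the WT libraries in M1. In M2, BNIP3 was at 6.07, 5.54, 5.17 and 5.07 FPKM in the CES1KD libraries, against 7.08, 6.92, 8.08 and 8.63 FPKM in the WT libraries, and in M0 at 5.47, 5.51, 5.61 and 5.49 FPKM in the CES1KD libraries, against 4.53, 4.58, 4.38 and 5.17 FPKM in the WT libraries. In M2 the CES1KD libraries were lower without overlap, at -0.42 ± 0.08 (adjusted p = 9.82e-05). Its M2 response was -0.02 ± 0.08 in CES1KD cells, not called, and 0.61 ± 0.08 in WT cells, and the lines differed by -0.63 ± 0.11 (adjusted p = 0.000643). The difference in M0, 0.21 ± 0.08, was not called when scaled to the total or the upper quartile, nor without CES1KD M0 replicate 1, 2, 3 or 4 or WT M0 replicate 1, 2 or 3, at 0.18 to 0.21, and 39 pseudogene copies took 1.61% to 9.01% of the fragments of BNIP3 and its copies. P4HA1, a subunit of the collagen prolyl hydroxylase, averaged 40.5 ± 3.13 FPKM in CES1KD and 38.2 ± 3.22 FPKM in WT, in M1, 29.5 ± 2.43 FPKM in CES1KD and 30.3 ± 2.8 FPKM in WT, in M2 and 28.5 ± 0.594 FPKM in CES1KD and 21.9 ± 1.42 FPKM in WT, in M0. The difference in M0, 0.37 ± 0.07, was called, and the M2 response of 0.05 ± 0.07 in CES1KD cells and 0.45 ± 0.07 in WT cells differed by -0.40 ± 0.10 (adjusted p = 0.0196). ANKRD37 averaged 1.16 ± 0.367 FPKM in CES1KD and 1.06 ± 0.275 FPKM in WT, in M1, 1.25 ± 0.274 FPKM in CES1KD and 0.7 ± 0.149 FPKM in WT, in M2 and 1.06 ± 0.337 FPKM in CES1KD and 0.64 ± 0.148 FPKM in WT, in M0, with 1 call between the lines, 0.40 ± 0.14 in M2, lost without CES1KD M2 replicate 3 or 4 or WT M2 replicate 2, at 0.34 to 0.35. In M0 its 0.32 ± 0.14 was called only without CES1KD M0 replicate 4 or WT M0 replicate 4, at 0.36 to 0.42.

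The medians of the glycolytic enzymes and the hypoxia targets lay 0.29 apart in WT M2. There 12 of 15 enzymes tested were higher than in WT M0 and 1 was lower, with a median of 0.35 (all genes 14.6% higher and 12.5% lower), while 2 of 5 hypoxia targets were higher and 1 was lower, with a median of 0.05. In CES1KD M2 against CES1KD M0, 4 enzymes were higher and 3 lower (median 0.05) and 0 hypoxia targets were higher and 1 lower (median 0.05), where all genes had 11.3% higher and 11.5% lower. In M1 against M0 the enzymes had 6 higher and 3 lower in CES1KD (median 0.24) and 11 higher and 0 lower in WT (median 0.35). The hypoxia targets had 4 higher and 0 lower in each line, with medians of 0.40 in CES1KD and 0.43 in WT. Of all genes, 24.9% were higher and 19.8% lower in CES1KD M1, and 26.4% were higher and 21.8% lower in WT M1. Between the lines, the enzymes had 3 higher and 6 lower in CES1KD in M1 (median -0.06), 4 and 7 in M2 (-0.07) and 8 and 2 in M0 (0.15). The hypoxia targets had 1 higher and 1 lower in M1 (median 0.08), 3 and 1 in M2 (0.23) and 3 and 1 in M0 (0.32). Of all genes, 28.5% were higher and 28.7% lower in M1, 25.6% and 26.7% in M2, and 28.1% and 26.3% in M0. With 5 hypoxia targets, 1 gene can set such a median, and no test was made over either list.

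As the mean of log2(FPKM + 1) over all 16 enzymes, CES1KD libraries lay at 4.68 to 4.84 in M1, 4.62 to 4.80 in M2 and 4.57 to 4.64 in M0. WT libraries lay at 4.86 to 5.01 in M1, 4.76 to 4.89 in M2 and 4.40 to 4.53 in M0. The span between states was thus narrower in CES1KD, whose libraries were below those of WT in M1 and above them in M0, with overlap in M2. Whether the separation in M0 leans on HK2 was not tested. There the differences of the enzymes tested ran from -1.21 (HK3) to 1.52 (HK2), with a median of 0.15. A mean without HK2 was not taken. Over the 5 hypoxia targets CES1KD libraries lay at 3.47 to 3.57 in M1, 3.05 to 3.12 in M2 and 3.13 to 3.24 in M0, all above the WT libraries at 3.24 to 3.38, 2.63 to 2.77 and 2.61 to 2.77. The separation was not there without ADM. Over the other 4 targets, a subset taken after the values were seen, CES1KD libraries lay at 3.30 to 3.44 in M1, 3.13 to 3.19 in M2 and 3.04 to 3.19 in M0, and WT libraries at 3.42 to 3.64, 3.04 to 3.21 and 2.97 to 3.17, overlapping in every state.

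**Figure D5:**
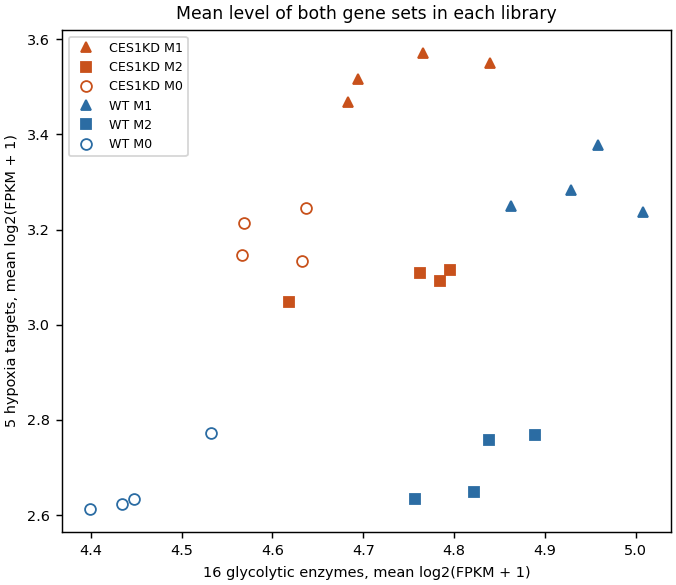
Mean log2(FPKM + 1) of the 16 glycolytic enzymes (horizontal axis) against that of the 5 hypoxia targets (vertical axis) in each of the 24 libraries, CES1KD and WT in M1, M2 and M0. Enzyme means lie at 4.68 to 4.84 in CES1KD M1 and 4.86 to 5.01 in WT M1, and at 4.57 to 4.64 in CES1KD M0 and 4.40 to 4.53 in WT M0.

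In summed FPKM the 16 enzymes came to 1170 to 1240 in CES1KD M1 and 1390 to 1480 in WT M1. They came to 1190 to 1310 in CES1KD M2 and 1380 to 1480 in WT M2, and to 1080 to 1190 in CES1KD M0 and 1000 to 1130 in WT M0. As a share of all fragments on genes, which amounts to scaling to the total, this was 0.543% to 0.576% in CES1KD M1 and 0.672% to 0.718% in WT M1, 0.626% to 0.688% in CES1KD M2 and 0.696% to 0.738% in WT M2, and 0.593% to 0.629% in CES1KD M0 and 0.565% to 0.605% in WT M0. The lines stood apart in M1 and M2 and overlapped in M0. By this share the CES1KD M1 libraries lay below the CES1KD M0 libraries, while by summed FPKM they did not.

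Other genes of these pathways were taken from lists. Of 23 further hypoxia targets tested, 11 were higher and 5 lower in CES1KD M1, 11 and 5 in M2, and 11 and 7 in M0, with medians of 0.25, 0.23 and 0.11. Of all genes, 28.5% were higher and 28.7% lower in M1, 25.6% and 26.7% in M2, and 28.1% and 26.3% in M0, which is also the background for the lists that follow. VEGFA, the main vessel growth factor, averaged 13.7 ± 0.996 FPKM in CES1KD M1 and 6.87 ± 0.328 FPKM in WT M1, and 15.9 ± 0.398 FPKM in CES1KD M0 and 4.63 ± 0.185 FPKM in WT M0. It was higher in CES1KD by 0.90 in M1, 0.94 in M2 and 1.58 in M0. FAM162A differed by -0.97, -0.78 and -0.84, and BNIP3L, a relative of BNIP3, by 1.03, 0.32 and 0.42 in M1, M2 and M0, all called. So hypoxia targets outside the 34 genes also went both ways.

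Of 11 HIF partners tested, 6 were higher and 3 lower in CES1KD M1, 4 and 4 in M2, and 4 and 2 in M0, while 57.2%, 52.3% and 54.3% of all genes were called in those states. CITED2, which competes with HIF for its coactivator, averaged 514 ± 19.5 FPKM in CES1KD M1 and 154 ± 3.88 FPKM in WT M1, 464 ± 13.4 FPKM in CES1KD M2 and 201 ± 4.58 FPKM in WT M2, and 341 ± 16.8 FPKM in CES1KD M0 and 132 ± 6.61 FPKM in WT M0 (SD, n = 4 each). It was higher in CES1KD by 1.73, 1.20 and 1.36 in the same order of states. Of 12 genes of pyruvate entry tested, 3 were higher and 6 lower in M1, 4 and 6 in M2, and 4 and 6 in M0. PDP1, a phosphatase that activates pyruvate dehydrogenase, was higher by 1.49, 1.49 and 1.26 in M1, M2 and M0, and DLAT, a subunit of the complex, was lower, at -0.55, -0.51 and -0.46. Of 9 glycogen genes tested 4 were higher and 3 lower in M1, 2 and 5 in M2, and 2 and 5 in M0. PYGL, the liver glycogen phosphorylase, averaged 5.95 ± 0.846 FPKM in CES1KD M1 and 24.5 ± 1.63 FPKM in WT M1, and 10.2 ± 0.521 FPKM in CES1KD M0 and 45 ± 1.78 FPKM in WT M0. Its difference was -1.88 in M1, -1.51 in M2 and -2.04 in M0. Of 8 genes of the pentose phosphate pathway 1 was higher and 4 lower in M1, 2 and 3 in M2, and 3 and 4 in M0. Of 10 other genes of glycolysis and its reversal 1 was higher and 3 lower in M1, 2 and 3 in M2, and 1 and 3 in M0, with FBP1, an enzyme of glucose synthesis, at -1.23, -0.46 and -1.09. The change of the knockdown effect with stimulation was called in 7 of the 23 further hypoxia targets in M1 and in 3 in M2, where 23.6% and 6.65% of all genes were called.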

How the data were processed

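The deposited table holds FPKM for 58735 genes in 24 libraries, that is, fragments divided by the length of the gene and by an adjusted library size. Per the submitters' processing notes the tools were CASAVA, HISAT2 and DESeq. For their settings and versions, the genome build, the strand setting and the way library sizes were adjusted, the sources used here give nothing. Gene IDs and coordinates matched GENCODE 29 on GRCh38 for 58724 genes. Multiplied by length, the FPKM of 100% of genes came in whole steps within each library (tolerance 1e-06 of a step), which gave the fragments. The library size behind the values lay at 0.87 to 0.946 times the total for M1 and at 1.01 to 1.14 times for M2 and M0. Because the deposited values are FPKM, no count model was used, and depth limits precision most for genes near 1 FPKM.

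The filter kept the 13242 genes that reached 1 FPKM in 4 or more libraries, log2(FPKM + 1) was taken, and limma 3.58.1 (R 4.3.3, intensity trend) fitted 1 mean per group over all libraries. P-values were two-sided, were adjusted by Benjamini-Hochberg across all kept genes, and were called under 0.05. The procedure was tested on simulated data. The 34 members and the other lists were chosen with earlier results of these data known. The rule for named genes gave per-library values to the members with the largest called differences in each comparison (up to 6, with a mean of at least 2 FPKM in the higher group) and named up to 2 genes with the smallest p in each direction per comparison from each other list, of which the leading ones are printed. Alternatives covered the pseudocount, filter, scaling, trend, replicate block, groups fitted and libraries left out. Results for some genes of the other lists are not reported here.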

Additional observations from a re-analysis of the deposited data

Results flagged for a closer look

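In 14 of 204 groups of 4 libraries, 1 library lay far from the other 3, where chance gives about 1 in 20. CES1KD M2 replicate 2 was the low library for SLC2A1 (34.7 FPKM), PFKL (14.8 FPKM), ALDOA (1.01 FPKM) and SLC16A3 (15.0 FPKM), and it is the library with the lowest correlations within its group. The other 10 were spread over groups and genes. In CES1KD they were ENO1 in M1 replicate 4 (138 FPKM), EPAS1 in M1 replicate 3 (1.41 FPKM), PKM in M2 replicate 3 (227 FPKM) and ENO2 in M0 replicate 2 (2.47 FPKM). In WT they were SLC2A3 in M1 replicate 3 (9.21 FPKM), HK2 in M1 replicate 2 (35.8 FPKM), SLC2A3 in M2 replicate 1 (4.4 FPKM), ALDOA in M2 replicate 2 (1.86 FPKM), PFKFB4 in M2 replicate 1 (14.4 FPKM) and PKM in M0 replicate 4 (180 FPKM).

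The knockdown effect differed between states by the test of the difference itself (limma). In M1 minus M0 the change was -0.98 for SLC2A1, -1.51 for SLC2A3, -1.35 for HK2, -0.44 for GPI, -0.98 for PFKP, -0.40 for PGAM1, -0.58 for ENO1, -0.59 for PKM, -0.58 for LDHA, -0.77 for SLC16A1 and -0.84 for ADM, and it was 0.42 for EPAS1 and 0.48 for EGLN1. In M2 minus M0 it was -0.54 for SLC2A1, -0.75 for SLC2A3, -0.89 for HK2, -0.91 for ALDOC, -0.45 for GAPDH, -0.21 for PGK1, -0.29 for PGAM1, -0.60 for PFKFB3, -0.63 for BNIP3, -0.68 for ADM and -0.40 for P4HA1. It was 0.70 for HK3, 1.02 for EPAS1 and 0.95 for NDRG1.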

How the results depend on the processing

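Among differences of single genes called in at least 1 of the settings compared, signs turned only when libraries were scaled to their total of fragments, which lowers M1 values. Small differences called in neither setting also turned elsewhere, as without CES1KD M2 replicate 2 for PFKL (0.08), ALDOA (0.21), TPI1 (0.03) and SLC16A3 (0.33) between the lines in M2. In M1 against M0 in CES1KD, HK1 became -0.00, PGAM1 -0.01, PFKFB3 -0.21 and NDRG1 -0.01, and in WT, GPI became -0.03, ENO1 -0.07, SLC16A1 -0.21 and NDRG1 -0.01. The gap between the medians of enzymes and hypoxia targets moved from one setting to another, and the cause was not tested. It was -0.38 for CES1KD against WT in M2 without the filter, -0.27 for M1 against M0 in WT with a pseudocount of 0.1, and -0.10 for the change of the knockdown effect in M1 with that pseudocount. For M2 against M0 in WT it was 0.23 with that pseudocount, 0.24 without the filter and 0.23 scaled to the total. Leaving out 1 library gave gaps of -0.24 to -0.08 for CES1KD against WT in M0, -0.28 to -0.11 for M1 against M0 in CES1KD, -0.05 to 0.11 for M2 against M0 in CES1KD, 0.24 to 0.33 for M2 against M0 in WT and -0.07 to 0.12 for the change of the knockdown effect in M1. From fragments in place of FPKM, which weights longer genes more, the CES1KD minus WT difference in isoform share was -2.06 points for HK2, -14.3 for PFKP and -16.2 for SLC2A3 in M1, and 19.8 for HK2, -4.46 for LDHB and -8.76 for SLC2A3 in M0. Leaving out 1 library moved the number of members called to 17 to 20 in M1, 22 to 24 in M2 and 17 to 20 in M0 between the lines, and to 13 to 15 (M1) and 10 to 18 (M2) for the change of the knockdown effect. Genes near 1 FPKM, such as ANKRD37 and PDK1, are those whose calls depth limits most.

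With the replicate number as a block, the members called between the lines were 20 in M1, 24 in M2 and 22 in M0, and the change of the knockdown effect was called for 14 in M1 and 15 in M2. M1 against M0 gave 19 in CES1KD and 24 in WT, and M2 against M0 gave 11 in CES1KD and 23 in WT. The same fit called 7810, 7203 and 7436 of 13242 genes between the lines in M1, M2 and M0, and 3355 and 982 for the change in M1 and in M2. M1 against M0 had 6171 genes called in CES1KD and 6608 in WT, and M2 against M0 had 3219 in CES1KD and 3823 in WT. Correlations between libraries of the same number, taken on deviations from group means, were -0.29 to 0.413. Of 4 libraries, 3 matched best with their own number between CES1KD M2 and WT M2, and 0 between CES1KD M0 and WT M0. So the numbers do not pair the libraries throughout, and pairing within some groups was not tested.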
